A study of Petromyzon marinus with 12 samples.

Results

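The genes described here are those of serine synthesis and glycine cleavage: PHGDH, PSAT1, PSPH, SHMT1, SHMT2, GLDC and GCSH. They were chosen by gene name, with earlier results of these data known, and all 7 were found among the 21967 gene rows of the count table. Their levels were measured by bulk RNA sequencing of the endostyle of the sea lamprey Petromyzon marinus, a jawless vertebrate. The endostyle is a gland of the pharyngeal floor that becomes the thyroid when a larval lamprey metamorphoses. All animals were wild type (labelled WT), with no treatment other than stage named in the labels. The libraries came from 4 stages, with 3 per stage, labelled T27, T28, T29 and T30 in order. The labels give no age in days, do not spell out the staging scheme and do not say whether a library came from 1 animal or from a pool. Because the members were named with these values known, their levels and changes are given as a description with SDs and standard errors (SE) and without p-values.

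Serine is made in the cytosol from the glycolytic intermediate 3-phosphoglycerate by PHGDH, PSAT1 and PSPH acting in turn. Serine hydroxymethyltransferase then moves a carbon unit from serine to folate and leaves glycine, and vertebrates have a cytosolic form, SHMT1, and a mitochondrial form, SHMT2. In mitochondria the glycine cleavage system breaks glycine into carbon dioxide, ammonia and a further folate-bound carbon unit. It consists of the glycine decarboxylase GLDC (P protein), the lipoyl carrier GCSH (H protein), the aminomethyltransferase AMT (T protein) and the dehydrogenase DLD (L protein). The folate carbon units serve the synthesis of purines, thymidylate and methionine.

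The libraries held 28371140 to 36032488 counts. Levels are given as CPM, read counts scaled to a common library size after correction by the trimmed mean of M-values (TMM), and levels of different genes were compared per kilobase of exon. All 7 genes passed the filter on low counts, which kept 16526 genes. The tissue label was checked against 14 listed endostyle and thyroid genes, of which 6 were matched. TG, PAX8, NKX2-1 and FOXE1 were among those not matched to a row, so the check was partial. SLC5A5, IYD, PAX2, HHEX and FOXA2 were detected at every stage and rose between T30 and T27. SLC5A5, the iodide transporter, had 105.6 ± 12.2 CPM at T30, against 5.93 ± 0.902 CPM at T27 (SD, n = 3 each; edgeR adjusted p = 4.37e-12), and FOXA2 had 85.0 ± 5.84 CPM at T30, against 74.3 ± 4.19 CPM at T27 (edgeR adjusted p = 0.0297). In bulk RNA, fewer cells of a type and less RNA per cell cannot be told apart.

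The positions come from the authors' annotation of the kPetMar1 assembly, and each count is a sum over the exons of a gene. PHGDH lies on the plus strand of NC_046072.1 from 9453143 to 9471049 in 13 exon blocks, and SHMT2 lies on the minus strand of the same sequence from 9955798 to 9970588 in 12 exon blocks. SHMT1 also has 12 exon blocks, on the minus strand of NC_046111.1 from 3977829 to 3990962. GLDC has 25 exon blocks on the plus strand of NC_046112.1 from 4569244 to 4612238, and GCSH has 5 on the minus strand of NC_046093.1 from 2733773 to 2744506. PSPH lies on the plus strand of NC_046106.1 from 6224098 to 6231297. Of its 1972 bp of exon, 601 bp overlap exons of CCDC189 on the opposite strand, so reads there cannot be assigned to either gene and its level per kilobase is less certain. PSAT1 lies on an unplaced scaffold, NW_022638201.1, from 14515 to 54609 on the minus strand, with 5378 bp of exon in 15 blocks. No other gene of the annotation overlaps the exons of the members apart from PSPH.

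The 3 serine synthesis genes stood higher at T30 than at the earlier stages, PHGDH by far the most abundant of them. Their summed level was 155.8 ± 11.996 CPM per kb at T30, against 27.3 ± 1.198 CPM per kb at T27 (SD, n = 3 each). The intermediate stages did not lead up to that level, with 24.3 ± 0.589 CPM per kb at T28 and 27.5 ± 2.75 CPM per kb at T29.

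PHGDH, the dehydrogenase that commits 3-phosphoglycerate to serine, had 81.5, 79.9 and 87.3 CPM at T27, 74.2, 73.6 and 69.8 CPM at T28, and 77.5, 91.6 and 77.4 CPM at T29. At T30 it had 455, 460 and 507 CPM. The T30 libraries lay close together, far above the 9 earlier ones, which spanned a narrow band. The mean was 474 ± 28.7 CPM at T30, against 82.9 ± 3.86 CPM at T27 (SD, n = 3 each), a fitted log2 difference of 2.52 (SE 0.08) or 5.72-fold. Between T30 and T29 it was 2.53 (SE 0.08). In level per kilobase PHGDH ranked 408 of the 16526 tested genes at T30, against 2657 at T27.

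PSAT1, the aminotransferase of the next step, was far less abundant. It had 8.72, 7.33 and 6.18 CPM at T27, 5.15, 5.89 and 4.82 CPM at T28, 5.29, 5.96 and 3.79 CPM at T29, and 24.4, 18.1 and 19.9 CPM at T30. The T27 libraries stood above those of T28, so that PSAT1 dipped in mean before its high value at T30. Its log2 difference was 1.49 (SE 0.18) for T30 against T27 and 2.05 (SE 0.18) for T30 against T29. The earlier libraries held 120 to 289 counts each, which makes these values less precise than those of PHGDH.

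PSPH, the phosphatase that releases serine, had 4.34, 3.85 and 4.84 CPM at T27, 5.22, 4.78 and 5.62 CPM at T28, and 5.71, 6.71 and 5.90 CPM at T29. At T30 it had 24.3, 31.9 and 41.0 CPM. Its libraries spread more at T30 than those of PHGDH, with a coefficient of variation of 25.8%, against 6.06% for PHGDH, but none came near the earlier stages. The log2 difference was 2.90 (SE 0.18) for T30 against T27, or 7.46-fold, and 2.41 (SE 0.17) for T30 against T29.

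The 3 genes did not keep a fixed proportion. Per kilobase, PHGDH exceeded PSAT1 by 35.6 ± 5.97 times at T30, against 17.6 ± 3.74 times at T27 (SD, n = 3 each). PHGDH exceeded PSPH by 10.8 ± 0.802 times at T27, 7.89 ± 0.849 times at T28, 7.57 ± 0.159 times at T29 and 8.54 ± 1.83 times at T30, where replicate 1, at 10.5 times, lay within the T27 range. The PHGDH to PSAT1 ratio depends on the long exon model of PSAT1: without length scaling its log2 value was 4.52 in place of 5.14 at T30, and 3.497 in place of 4.12 at T27. The PHGDH to PSPH ratio depends on length scaling too. Without it the log2 value was 3.90 in place of 3.07 at T30, and 4.26 in place of 3.43 at T27. The exon overlap of PSPH with CCDC189 makes this ratio less certain as well.

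**Figure D1:**
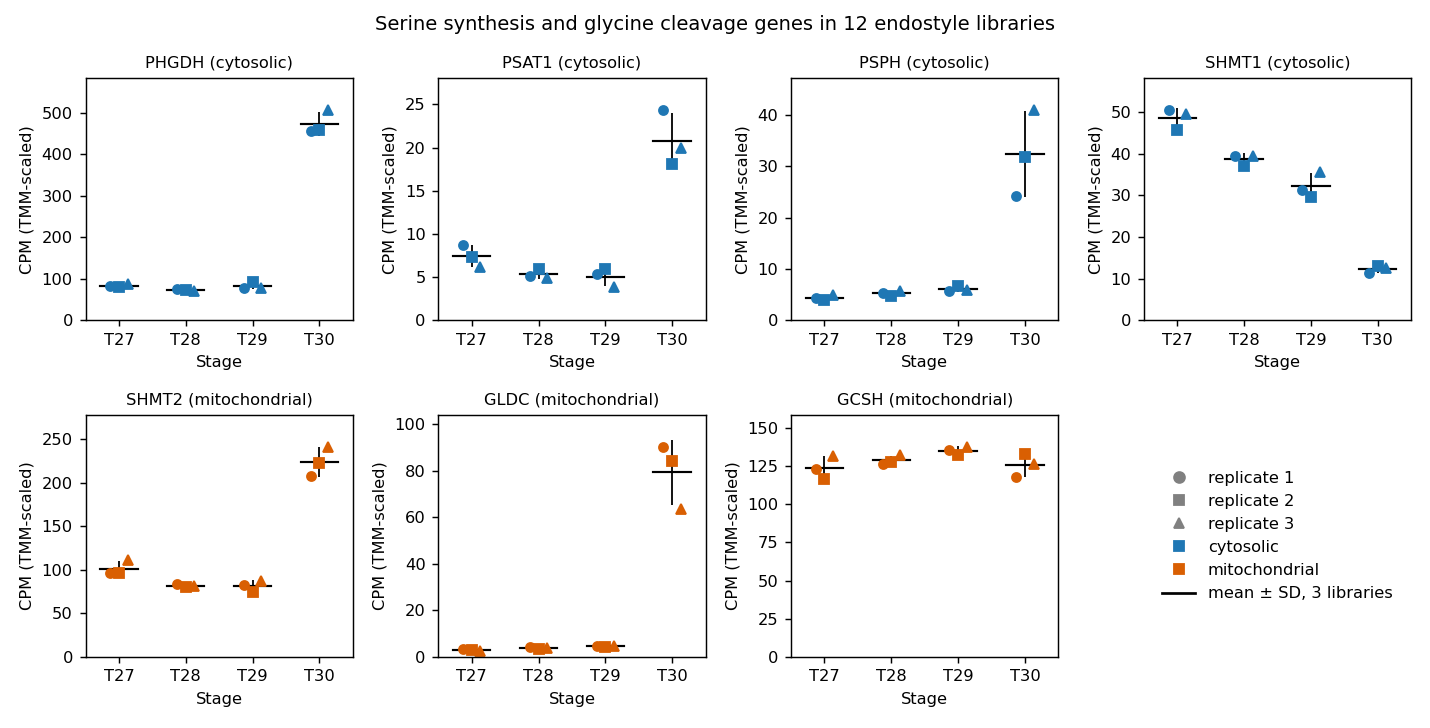
Level of each of the 7 genes in CPM (linear axis from 0, one panel per gene) at the 4 stages; each point is a library, its shape gives the replicate number, and black bars show the mean ± SD of 3 libraries. PHGDH, PSAT1, PSPH, SHMT2 and GLDC have their highest libraries at T30, SHMT1 has its lowest there, and GCSH stays between 116 and 138 CPM.

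The mitochondrial and the cytosolic serine hydroxymethyltransferase went in opposite directions. SHMT2 stood at 224 ± 17.1 CPM at T30, against 101.3 ± 8.78 CPM at T27, while SHMT1 stood at 12.3 ± 0.875 CPM at T30, against 48.6 ± 2.55 CPM at T27 (SD, n = 3 each). The fitted log2 changes were 1.14 (SE 0.08) for SHMT2 and -1.98 (SE 0.09) for SHMT1, which differ by 3.12.

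SHMT2 had 96.0, 96.6 and 111.5 CPM at T27, 83.6, 80.3 and 81.4 CPM at T28, 82.4, 74.3 and 87.6 CPM at T29, and 207, 222 and 241 CPM at T30. Its course was not monotonic: all libraries of T28 and T29 lay below those of T27, and all of T30 lay above. SHMT1 had 50.5, 45.7 and 49.5 CPM at T27, 39.6, 37.1 and 39.5 CPM at T28, 31.4, 29.6 and 35.7 CPM at T29, and 11.3, 13.04 and 12.5 CPM at T30. It was lower at each later stage, and no library of a stage overlapped those of the stage before. The same lack of overlap was seen in 45.8%, 34.0% and 63.4% of all tested genes at these steps in order. The first steps together took its mean to 32.2 ± 3.15 CPM at T29, and the last step held 70.1% of the log2 difference between T30 and T27.

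Within a library, SHMT2 exceeded SHMT1 per kilobase by 1.90, 2.12 and 2.26 times at T27, 2.12, 2.17 and 2.07 times at T28, 2.63, 2.52 and 2.46 times at T29, and 18.3, 17.1 and 19.3 times at T30. SHMT2 thus made up 94.8% ± 0.300 of the sum of both forms at T30, against 67.6% ± 1.90 at T27 (SD, n = 3 each). It was the more abundant form in every library. The sum of both forms was 89.1 ± 6.67 CPM per kb at T30, against 56.5 ± 3.69 CPM per kb at T27. The exon lengths of both genes are nearly equal, at 2649 bp for SHMT2 and 2657 bp for SHMT1, so the ratios hardly depend on length scaling.

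**Figure D2:**
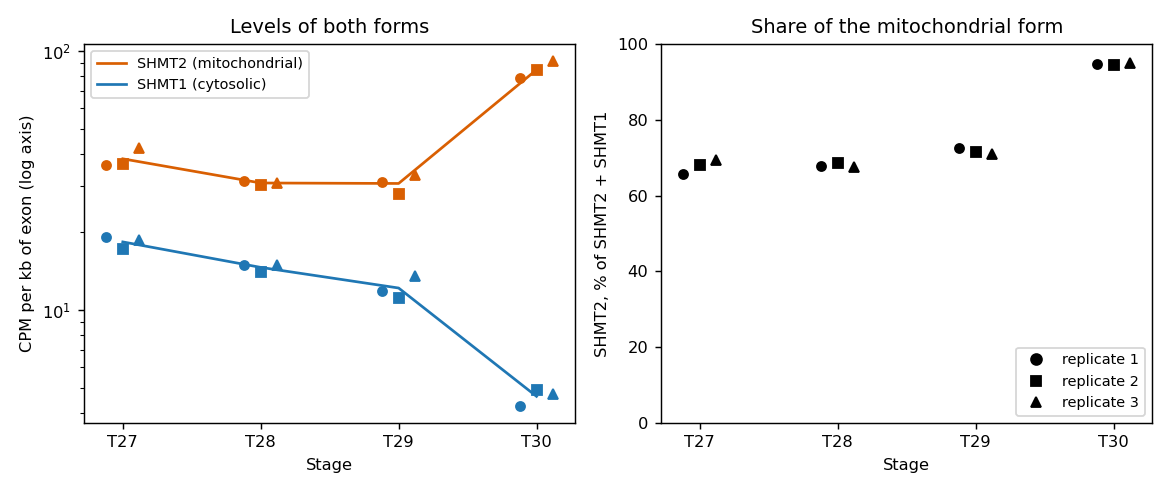
Left, level of SHMT2 and SHMT1 in CPM per kilobase of exon (log axis) by stage, with a point for each library and a line through the stage means. Right, SHMT2 as a percent of the sum of both forms in each library (axis from 0 to 100), at 94.5 to 95.1% at T30 and 65.6 to 72.5% at the earlier stages.

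The glycine cleavage genes did not move as a unit. GLDC, the decarboxylase, stood 26.6-fold above its T27 level at T30 and ranked 2790 of 16526 tested genes in level per kilobase at T30, against 13049 at T27, while GCSH, the lipoyl carrier, kept nearly the same level throughout. GLDC had 3.41, 2.92 and 2.61 CPM at T27, 4.19, 3.44 and 3.61 CPM at T28, 4.62, 4.14 and 4.64 CPM at T29, and 90.3, 84.1 and 63.6 CPM at T30. The earlier libraries all lay under 5 CPM, on 78 to 165 counts each, and the T30 libraries on 1831 to 3352 counts. The log2 difference was 4.73 (SE 0.16) for T30 against T27, which ranked 238 from the top of 16526 tested genes. For T30 against T29 it was 4.15 (SE 0.15) and ranked 94.

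GCSH had 123, 116 and 132 CPM at T27, 127, 128 and 132 CPM at T28, 136, 132 and 138 CPM at T29, and 118, 133 and 127 CPM at T30. The T30 libraries spanned nearly the same range as those of T27, and the log2 difference between these stages was 0.02 (SE 0.07). The SE leaves room for a small difference in either direction.

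AMT and DLD, the other proteins of the system, were no members and were tested across all genes. AMT rose in edgeR's quasi-likelihood test, to 16.02 ± 2.62 CPM at T30, against 3.91 ± 0.311 CPM at T27 (SD, n = 3 each; log2 change 2.04, SE 0.16, adjusted p = 3.19e-08). It had 3.95, 4.19 and 3.57 CPM at T27, 4.90, 5.19 and 5.21 CPM at T28, 8.29, 6.41 and 6.25 CPM at T29, and 16.9, 18.1 and 13.1 CPM at T30. No library of a stage overlapped those of the stage before, as in 45.8%, 34.0% and 63.4% of all tested genes at these steps. AMT was not called for T28 against T27 or T29 against T28 (edgeR adjusted p = 0.0983 and 0.0708). DLD, which also serves the pyruvate and oxoglutarate dehydrogenases, had 205 ± 21.5 CPM at T30, against 217 ± 7.50 CPM at T27, and was not called (log2 difference -0.09, SE 0.08, edgeR adjusted p = 0.329). Between T30 and T29 DLD fell, to 205 ± 21.5 CPM at T30, against 276 ± 10.5 CPM at T29 (log2 change -0.43, SE 0.08, edgeR adjusted p = 0.000248).

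Per kilobase, the order of the 4 proteins was DLD, GCSH, AMT and GLDC at T27 and DLD, GCSH, GLDC and AMT at T30. GCSH exceeded GLDC by 2.17 ± 0.460 times at T30, against 56.3 ± 10.004 times at T27. GLDC stood at 1.90 ± 0.134 times the level of AMT at T30, against 0.293 ± 0.0339 times at T27 (SD, n = 3 each). AMT is annotated as a single exon block of 1442 bp, and its level per kilobase rests on that model.

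**Figure D3:**
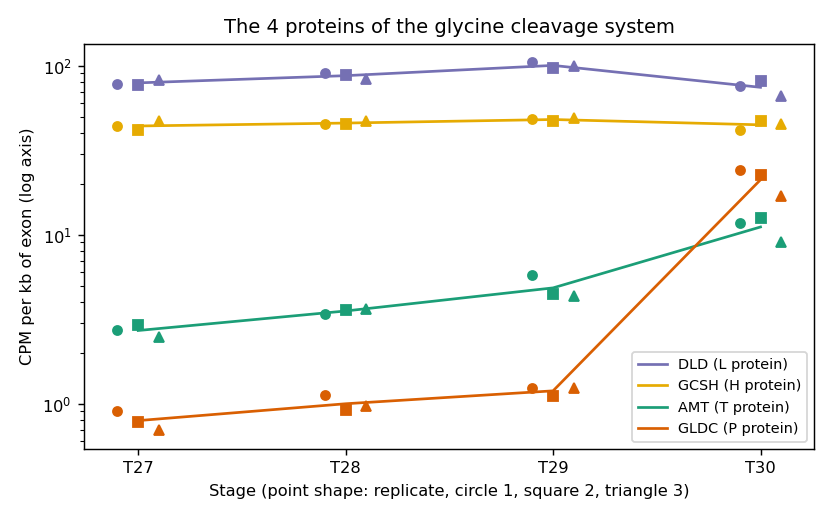
Level of DLD, GCSH, AMT and GLDC in CPM per kilobase of exon (log axis) by stage, with a point for each library and a line through the stage means. GLDC lies above AMT at T30, at 21.1 CPM per kb, and below it at the earlier stages, while DLD and GCSH lie above both at every stage.

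The T30 libraries differed among themselves, and the order of the replicates was not the same for all genes. PHGDH, PSPH and SHMT2 were highest in replicate 3 of T30, at 507, 41.0 and 241 CPM, and GLDC, AMT and DLD were lowest there, at 63.6, 13.1 and 181 CPM. PSAT1 was highest in replicate 1, at 24.4 CPM, and SHMT1 and GCSH in replicate 2, at 13.04 and 133 CPM. Each of these orders rests on single libraries.

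Most of the difference in the members lay in the last step. In the fit across all genes, 6 of the 7 members were called between T30 and T29 at an edgeR adjusted p below 0.05, where 60.3% of all tested genes were called. Of these 6, 5 were higher and 1 was lower at T30 (30.3% and 30.1% of all tested genes). For T30 against T27 6 members were called, where 68.8% of all tested genes were, again 5 higher and 1 lower (34.8% and 34.1% of all tested genes). At the first step, T28 against T27, 2 members were called, where 26.0% of all tested genes were: 0 higher and 2, SHMT1 and SHMT2, lower (14.3% and 11.8% of all tested genes). At the middle step, T29 against T28, 0 members were called, where 13.4% of tested genes were called, 7.86% higher and 5.54% lower. The counts at these early steps depended on single libraries and on the tool. For T28 against T27, 1 member was called without T27 replicate 1 or T28 replicate 2 (SHMT2) and without T27 replicate 3 (PSAT1), and 3 were called with DESeq2 and without T29 replicate 3 (PSAT1, SHMT1 and SHMT2). For T29 against T28, 1 member, SHMT1, was called with DESeq2, with limma voom and without T29 replicate 3. Since the members were named with these values known, nothing is read from the counts. The T30 and T27 libraries did not overlap in 6 of 7 members and in 71.5% of all tested genes. Libraries of T28 and T27 did not overlap in 5 members (45.8% of tested genes), those of T29 and T28 in 4 (34.0%), and those of T30 and T29 in 6 (63.4%).

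The early steps showed small and mixed differences. For T28 against T27 the log2 difference was -0.19 (SE 0.08) for PHGDH, -0.49 (SE 0.18) for PSAT1 and 0.26 (SE 0.18) for PSPH. It was -0.33 (SE 0.09) for SHMT1 and -0.31 (SE 0.08) for SHMT2, and 0.33 (SE 0.16) for GLDC. PHGDH, SHMT2 and PSAT1 had their lowest stage means at T28 or T29, while PSPH and GLDC were slightly higher at each later stage. GCSH had log2 differences of 0.06, 0.07 and -0.10 at the 3 steps in order (SE 0.07 for the last).

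**Figure D4:**
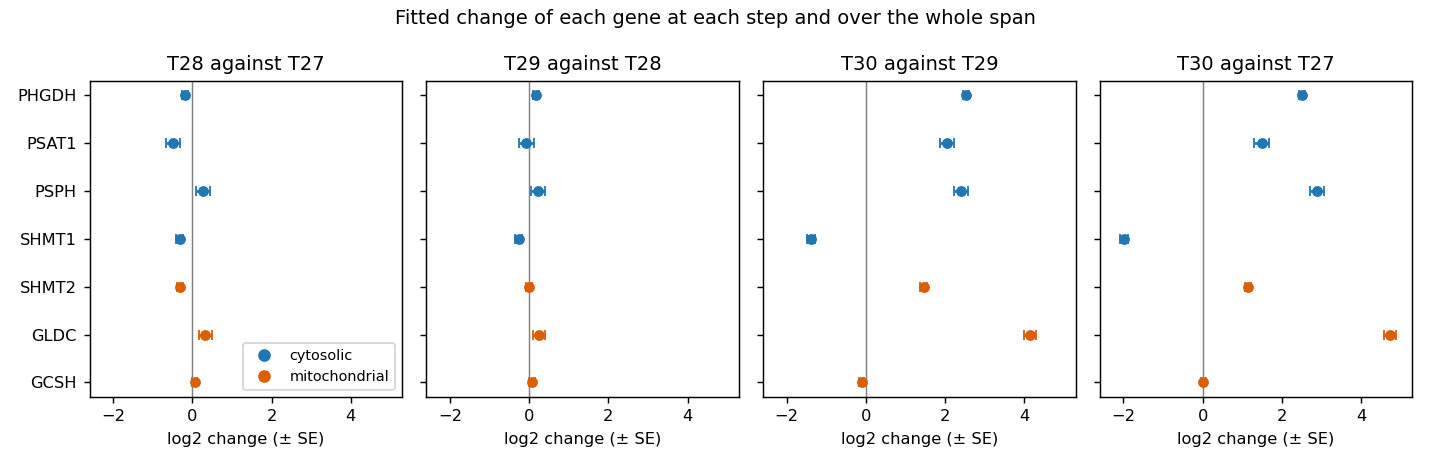
Fitted log2 change of each gene (x axis, ± SE; first stage named minus the second) at the 3 steps and for T30 against T27, with cytosolic and mitochondrial proteins in different colours. At the last step SHMT1 is at -1.39 while 5 genes lie between 1.46 and 4.15.

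Other genes of serine, glycine and folate metabolism were taken from 8 lists of 117 genes, of which 61 were found in the count table and 59 were tested. Between T30 and T27, 22 of them rose (37.3%) and 21 fell (35.6%), shares near the 34.8% and 34.1% of all tested genes, and their median log2 change was -0.02, against 0.01 for all tested genes. The branches are described in turn, and differences between their counts were not tested.

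In the mitochondrial folate branch, 3 of 5 tested genes rose and 0 fell (median log2 change 0.34). ALDH1L2, which oxidises formyl folate in mitochondria, rose to 70.7 ± 4.39 CPM at T30, against 7.09 ± 1.04 CPM at T27 (SD, n = 3 each; log2 change 3.32, SE 0.12, edgeR adjusted p = 1.10e-11). SFXN2, a sideroflexin of the mitochondrial inner membrane, rose to 23.9 ± 3.47 CPM, against 8.18 ± 1.08 CPM at T27 (log2 change 1.55, SE 0.14). SLC25A32, the mitochondrial folate carrier, was called higher at T30 (1.27-fold, edgeR adjusted p = 0.0165), and the call was lost without T27 replicate 1 (adjusted p = 0.056), T27 replicate 2 (0.0685) or T30 replicate 3 (0.067). SLC25A38, a mitochondrial glycine carrier, had a log2 difference of 0.21 (SE 0.12, edgeR adjusted p = 0.122) and was called without T27 replicate 3 (adjusted p = 0.0264). MTFMT went the other way, with a log2 difference of -0.25 (SE 0.12, edgeR adjusted p = 0.0623). It was called lower without T27 replicate 2 (adjusted p = 0.0345), T30 replicate 2 (0.0344), T29 replicate 1 (0.0479) or T29 replicate 3 (0.0494). Between T30 and T29 MTFMT fell (edgeR adjusted p = 0.0251). MTHFD2, MTHFD2L, MTHFD1L and SFXN1 were not matched to a row, so the central enzymes of this branch were not analysed here.

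In the cytosolic folate branch, 0 of 9 tested genes rose and 6 fell between T30 and T27 (median log2 change -1.19). The falls were not confined to the last step. For T28 against T27 5 of 9 fell, and for T29 against T28 4 of 9 (11.8% and 5.54% of all tested genes). Between T30 and T29 5 fell and 1 rose (30.1% and 30.3% of all tested genes). MTHFD1, the trifunctional cytosolic folate enzyme, fell to 60.0 ± 4.53 CPM at T30, against 137 ± 10.8 CPM at T27 (SD, n = 3 each; log2 change -1.19, SE 0.08, edgeR adjusted p = 4.64e-09). The thymidylate synthase gene TYMS fell to 17.7 ± 1.83 CPM, against 107 ± 2.67 CPM at T27 (log2 change -2.604, SE 0.08). The purine synthesis genes GART and ATIC had log2 changes of -1.51 and -1.12. FTCD, of histidine breakdown, also fell and was at a low level throughout (log2 change -2.40, SE 0.42), with 0.197 CPM at T30, against 1.08 CPM at T27.

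The markers of dividing cells were lower over the same span. Of 22 listed cell cycle genes 12 were tested, all 12 fell between T30 and T27, and their median log2 change was -2.66. Their summed level was 392 to 446 CPM at T30, against 2576 to 2887 CPM at T27, and none was at 0 at any stage. PCNA, the most abundant of them per kilobase, had 96.6 CPM at T30, against 580 CPM at T27. The genes with a symbol whose pattern was most like that of SHMT1 over the 12 libraries were MASTL, C16H4orf46 and TK1, with Pearson's r of log2 CPM of 0.998, 0.997 and 0.997. The part of dividing cells in the SHMT1 and cytosolic folate differences was not tested.

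Genes that use or break down serine moved in both directions, with 5 of 9 tested higher and 3 lower at T30 than at T27. Among the higher were SPTLC2 (1.19-fold) and PTDSS2 (1.52-fold). The call of PTDSS2 was lost without T27 replicate 3 (edgeR adjusted p = 0.0677). SPTLC1 was among the lower (0.872-fold). Its call was lost without T27 replicate 3 (edgeR adjusted p = 0.0911), T30 replicate 1 (0.0666) or T30 replicate 3 (0.0654). CTH, which makes cysteine from the serine adduct cystathionine, rose to 495 ± 44.4 CPM at T30, against 58.6 ± 7.92 CPM at T27 (SD, n = 3 each; log2 change 3.08, SE 0.11, edgeR adjusted p = 1.61e-11). The aminotransferase gene AGXT rose 3.37-fold, to 4.89 CPM at T30, against 1.45 CPM at T27. SDS, serine dehydratase, rose 2.43-fold. PTDSS1, a phosphatidylserine synthase, fell to 4.55 ± 0.892 CPM, against 16.1 ± 1.13 CPM at T27, and the glyoxylate reductase gene GRHPR had a log2 change of -0.46 (SE 0.11).

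Of 11 tested genes of glycine use and supply, 4 rose and 3 fell. GNMT, which methylates glycine to sarcosine, rose to 112 ± 21.4 CPM at T30, against 14.2 ± 2.32 CPM at T27 (SD, n = 3 each; log2 change 2.98, SE 0.15, edgeR adjusted p = 3.35e-10). SARDH, which returns sarcosine to glycine in mitochondria, rose to 78.7 ± 3.10 CPM, against 14.2 ± 1.58 CPM at T27 (log2 change 2.48, SE 0.12). The sarcosine oxidase gene PIPOX rose 3.87-fold and GATM, of creatine synthesis, 2.49-fold. The D-amino acid oxidase gene DAO and the aminotransferase gene AGXT2 fell, with log2 changes of -1.55 (SE 0.30) and -0.77 (SE 0.13). Of the glutathione synthesis genes, GCLC, the catalytic subunit of the first step, fell to 64.6 ± 5.64 CPM at T30, against 78.8 ± 1.43 CPM at T27 (SD, n = 3 each; log2 change -0.29, SE 0.07, edgeR adjusted p = 0.00200), while GCLM and GSS had log2 differences of -0.07 and 0.06 and were not called.

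The other glycine cleavage proteins, AMT and DLD, were listed together with genes of lipoylation, on which GCSH depends. Of the 10 tested genes of this list, 2 rose, AMT and NFU1, and 4 fell. LIAS, the lipoyl synthase, had a log2 difference of 0.12 (SE 0.08, edgeR adjusted p = 0.194), and it was called without T30 replicate 3 (adjusted p = 0.0477). Of its exons, 1055 bp overlap those of UGDH on the opposite strand. NFU1, an iron-sulfur carrier, rose 1.81-fold, and LIPT1, a lipoyl transferase, and BOLA3, of iron-sulfur cluster assembly, had log2 changes of -0.52 (SE 0.15) and -0.54 (SE 0.08).

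Few carriers and glycolytic genes could be matched. The glycine transporter SLC6A9 was called higher at T30, at 2.06 ± 0.261 CPM, against 1.25 ± 0.360 CPM at T27 (SD, n = 3 each; edgeR adjusted p = 0.0245), and the call was lost without T27 replicate 3 (adjusted p = 0.109) and without T30 replicate 1 (adjusted p = 0.0875). SLC7A10, a small neutral amino acid transporter, fell to 0.921 CPM at T30, against 3.10 CPM at T27. Upstream of serine synthesis, the row named GAPDH rose to 398 ± 97.2 CPM, against 45.7 ± 5.46 CPM at T27. Over the same span TPI1 fell slightly (log2 change -0.23, SE 0.07) and PGK1 was not called (log2 difference -0.06). Between T30 and T29 TPI1 and PGK1 both fell (log2 changes -0.56 and -0.37, edgeR adjusted p = 9.56e-06 and 0.00133), while GAPDH rose (1.65). TPI1 had risen between T29 and T28 (log2 change 0.25, edgeR adjusted p = 0.0307). Muscle markers, whose tissue is rich in glycolytic enzymes, rose over the same span in all 8 tested genes of 16 listed, with a summed level of 702 to 1259 CPM at T30, against 112 to 156 CPM at T27. Their part in the GAPDH rise was not tested.

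The amino acid response is a stress pathway that induces serine synthesis genes in mammals. Of 10 tested genes in the list made for it, 6 rose and 3 fell between T30 and T27. Among the 6, AARS1 rose 1.16-fold, and its call was lost without T27 replicate 1 (edgeR adjusted p = 0.0594). NUPR1 rose to 6.48 ± 1.67 CPM at T30, against 0.238 ± 0.161 CPM at T27 (SD, n = 3 each), and STC2 rose 2.11-fold. The T27 level of NUPR1 was very low, so the size of its log2 change (4.73, SE 0.39) is imprecise. It ran from 4.42 to 5.45 under the alternatives described below. EIF2AK3, an initiation factor kinase, rose 1.51-fold. KEAP1, a repressor gene from outside this pathway that the list also held, rose 1.77-fold. EIF2AK4, another initiation factor kinase of the list, fell (log2 change -0.25, SE 0.08, edgeR adjusted p = 0.0179). Its call was lost without T30 replicate 2 (adjusted p = 0.0649). The seryl-tRNA synthetase gene SARS1 rose 1.34-fold, while the glycyl-tRNA synthetase gene GARS1 and the initiation factor gene EIF2S1 fell, with log2 changes of -0.59 and -0.97. NUPR1 and STC2 were also higher at T29 than at T28 (edgeR adjusted p = 0.00626 and 0.00653). ATF4 and ASNS, the central regulator and a standard target, were not matched to a row and were not analysed here.

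**Figure D5:**
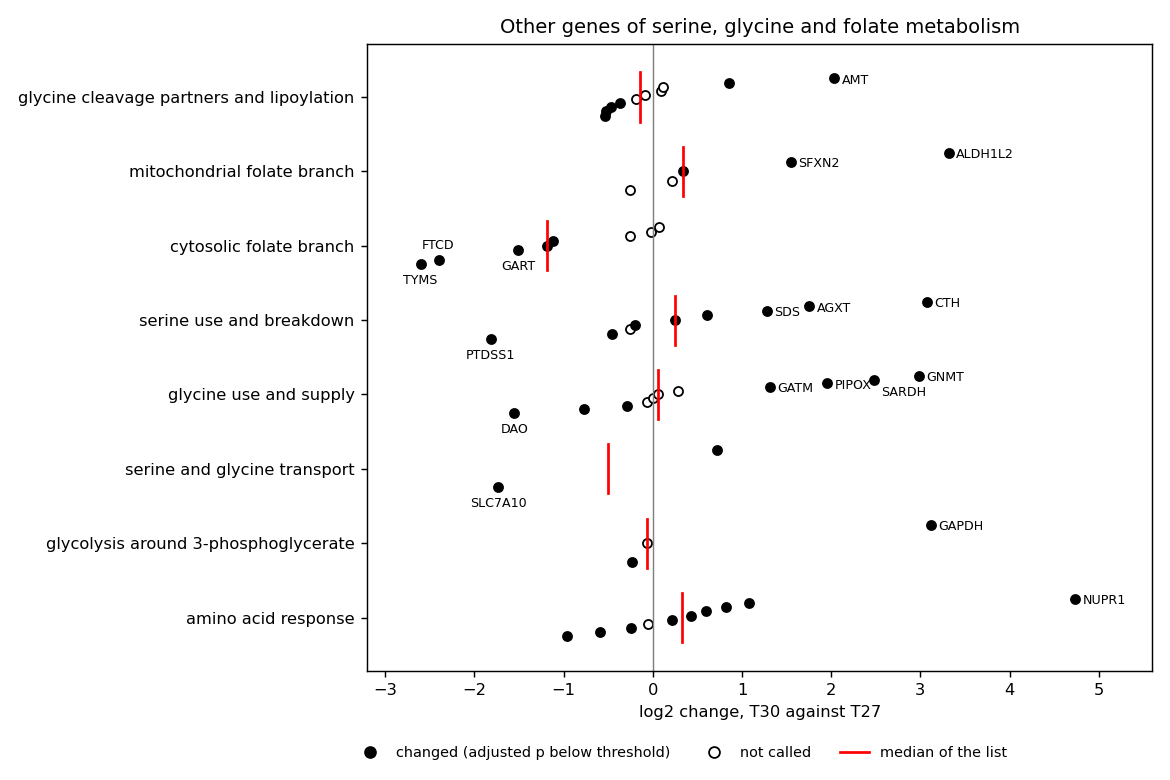
log2 change of T30 against T27 (x axis) for tested genes of the 8 related lists (rows); filled points passed the edgeR adjusted p threshold, open points did not, and red bars are list medians. Genes not reported here have no point but are included in the medians. Cytosolic folate genes lie at or below 0.07, while NUPR1, ALDH1L2, GAPDH, CTH and GNMT lie at 4.73, 3.32, 3.12, 3.08 and 2.98. The value of NUPR1 rests on a very low T27 level, at 0.238 CPM.

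Several genes of this metabolism ran closely with the members over the 12 libraries, as measured by Pearson's r of log2 CPM. Only tested genes with a symbol were ranked, so genes without one may lie nearer. These r values are a description: all genes share the libraries and the step to T30, where 60.3% of tested genes were called. Nearest to PHGDH were ALDH1L2 (r = 0.994), GLIPR1 (0.989) and PARP12 (0.988), and nearest to GLDC were AHCY (0.993), ALDH1L2 (0.991) and SLC8B1 (0.990). AHCY hydrolyses the homocysteine precursor formed in methylation reactions and had 1887 CPM at T30, against 402 CPM at T27. PSPH was most like CTH (0.987), LRRC69 (0.987) and the amino acid transporter subunit SLC3A2 (0.987), and PSAT1 was most like PTPRQ (0.982), ADAM17 (0.971) and PARP12 (0.965). SHMT2 was most like AKT1S1 (0.985), ASPG (0.980) and GGCX (0.973), and GCSH was closely like DNPH1 (0.938) and ANAPC16 (0.919). Between members, PHGDH had r = 0.982 with GLDC, 0.977 with PSPH, 0.971 with SHMT2, 0.944 with PSAT1, -0.950 with SHMT1 and -0.232 with GCSH.

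Markers of other tissue that could carry these genes were compared with them. Liver, which in mammals is rich in GLDC, GNMT and SHMT1, was represented by 13 tested genes of 18 listed, of which 5 rose and 4 fell between T30 and T27. Their summed level was 324 to 351 CPM at T30, against 258 to 281 CPM at T27, and none was at 0 at any stage. HPD alone, at 175 CPM at T30, against 41.5 CPM at T27, carried the higher sum: without it the sum was 160 to 166 CPM at T30, against 209 to 243 CPM at T27. The sum without HPD in turn held the large fall of APOC3 given below, so both sums depended on single genes. The genes that rose included the tyrosine breakdown enzymes HPD and HGD, and APOB of the plasma lipoproteins, at 2.68 CPM at T30, against 0.832 CPM at T27. The genes that fell were the lipoprotein gene APOC3 (log2 change -4.56, 2.80 CPM at T30, against 66.0 CPM at T27), the prothrombin gene F2 (-1.49), the fibrinogen gene FGG (-1.60) and FAH of tyrosine breakdown (-0.74). FGB, a further fibrinogen gene, had 1.97 CPM at T30, against 1.45 CPM at T27, and was not called. Of 12 listed glial and neural progenitor genes 3 were tested, and 2 rose, GLUL to 877 CPM at T30, against 353 CPM at T27. AQP4 had 29.3 ± 5.82 CPM at T30, against 33.3 ± 1.40 CPM at T27, and was not called (edgeR adjusted p = 0.181). Between T30 and T29 AQP4 fell (edgeR adjusted p = 0.000581). Muscle markers, described above, had a summed level of 702 to 1259 CPM at T30, against 112 to 156 CPM at T27. The part of liver, glia or muscle in the member differences was not tested.

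In the authors' deposited table of z-scores within a gene over Ciona, the 4 lamprey stages and zebrafish, 2 of the 7 members are listed. PHGDH has scores of -0.82, -0.96, -0.77 and 1.49 at T27, T28, T29 and T30 in the authors' deposited table, with 0.41 for Ciona and 0.64 for zebrafish. GLDC has -1.02, -0.81, -0.65 and 1.5 at these stages in the authors' deposited table, with 0.77 for Ciona and 0.21 for zebrafish. T30 is the highest of the 6 columns for both genes, as for 18.7% of the 1671 genes in the authors' deposited table. ALDH1L2 has nearly the same scores as PHGDH in the authors' deposited table, with -0.94 at T28 and 1.5 at T30, and 0.43 for Ciona and 0.62 for zebrafish. The table holds 1 value per gene and column, and the unit that was standardised is not given in the sources used here.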

How the data were processed

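Raw read counts for each gene, made with featureCounts 1.6.3 on a kPetMar1 annotation per the file headers, were deposited by the authors with no strand option recorded. Bowtie2 and DESeq2 are named too, per the submitters' processing notes, without the settings used. Exon lengths in bp stand in the same file. A second table from the authors holds a z-score (score) within each gene and was only described.

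Genes passing filterByExpr (minimum count 10) were scaled by TMM. The 12 libraries entered 1 quasi-likelihood fit with stage as the factor (edgeR 4.0.16, R 4.3.3, 8 residual degrees of freedom, common dispersion 0.0154). Benjamini-Hochberg adjustment ran over all 16526 genes, and the threshold was 0.05 whatever the fold. SE was obtained as |log2 change| over the root of F. "Rose" and "fell" are used of genes past the threshold. Correlations used log2 CPM with a prior count of 2. The procedure was run on simulated counts with a common dispersion and few genes changed, all of them at T30. In these data 68.8% of tested genes were called for T30 against T27. The simulation therefore does not test the scaling where most genes differ.

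Replicates carry numbers in the labels but are not said to be separate animals, so the p-values reflect only how these libraries vary, which may be technical. No replicate pair agreed within counting noise. The members and the lists were chosen with earlier results of these data known. Named beside the members were AMT, DLD and other genes fixed by name, and the 2 largest called rises and falls of each list. The 3 genes with a symbol most like each member were named too. A few further list genes (such as ATIC, GART, SDS, PIPOX, GATM, GCLC, GCLM, GSS, SLC25A32, EIF2AK3, EIF2AK4, KEAP1, SARS1 and PGK1, and APOB, APOC3, F2, FAH, FGB, FGG and HGD of the liver list) were chosen after their values were seen, as was the liver sum without HPD. A few genes that the rule or the lists hold are not reported here. List genes were matched by symbol, or by gene ID through the RefSeq table of assembly UKy_Petmar_22M1.pri1.0 for names alone (NFU1, SLC19A1 and AGXT2 of the pathway lists). Alternatives were relative log expression size factors, no filter, DESeq2 1.42.0, limma 3.58.1 with voom, a fit of the compared stages alone, a replicate block, a 1.5-fold limit (glmTreat) and leaving out each library.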

Additional observations from a re-analysis of the deposited data

How the results depend on the processing

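The log2 change of each of the 7 members was taken at the 3 steps and for T30 against T27. Under 18 alternatives, all but the 1.5-fold limit, every one moved by less than the SD between replicates. Where a library was left out this holds by construction, since dropping 1 of 3 shifts a stage mean by less than that SD. There it says nothing about stability. For T30 against T27 the ranges were 2.48 to 2.55 for PHGDH, 1.36 to 1.62 for PSAT1, 2.71 to 3.07 for PSPH, -2.03 to -1.92 for SHMT1, 1.10 to 1.21 for SHMT2, 4.63 to 4.88 for GLDC and -0.02 to 0.07 for GCSH. For T29 against T28 the sign changed for PSAT1 (-0.22 to 0.09) and SHMT2 (-0.06 to 0.06). The 6 member calls for T30 against T27 and the 6 for T30 against T29 were made under each of these 18. In the main fit 68.8% and 60.3% of all tested genes were called in these comparisons. For T28 against T27 1 to 3 members were called (26.0% of all tested genes in the main fit). For T29 against T28 it was 0 to 1 (13.4%). Nothing is read from these counts, since the members were named with these values known. The difference between the SHMT2 and SHMT1 changes ran from 3.06 to 3.18. Against a 1.5-fold limit, which asks more of each gene by construction, 6087 genes were called for T30 against T27, 673 for T28 against T27, 156 for T29 against T28 and 3750 for T30 against T29, and 25 of the 59 related genes in place of 43. Of the 18 calls lost there, those of genes named above were BOLA3, LIPT1, SLC25A32, SPTLC1, SPTLC2, PTDSS2, GRHPR, GCLC and AGXT2. The calls of SLC6A9, TPI1, EIF2AK3, EIF2AK4, SARS1, GARS1 and AARS1 were lost there too. Leaving out a library gave 1192 to 2395 genes for T29 against T28, against 2215 with all libraries; it was 1192, 1346 and 1451 without T28 replicates 1, 2 and 3 and 1259 without T29 replicate 1, fits with fewer samples. The other counts stayed within 1.5 times. With a replicate block the counts were 11276, 4063, 2007 and 9821 genes (T30 against T27, T28 against T27, T29 against T28, T30 against T29; 11376, 4301, 2215 and 9973 without it), 43 related genes and 3.12 for the SHMT difference, and 0 of the 59 related genes lost or gained a call for T30 against T27. Among the members the block added the call of PSAT1 for T28 against T27 (3 called in place of 2). Same-numbered libraries of different stages shared deviations with r from -0.289 to 0.241, over 0.1 in 4 of 18 pairs, and differently numbered ones with r from -0.181 to 0.239. Of the 12 libraries, 6 were nearest to their own number. These values show no clear pairing by number, but so few libraries cannot exclude it. The precision of PSAT1, PSPH and GLDC before T30 is limited by their low counts.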
